A study of Mus musculus with 2 samples.

Results

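Of the 7067 cell barcodes of the control library, 2244 (31.8%) were β-cells by their insulin and held no second islet hormone above a low limit; the whole series held 12900 barcodes. Members had more than 2500 detected genes, fewer than 10% mitochondrial UMIs (unique molecular identifiers, each marking 1 captured transcript), at least 3000 UMIs of Ins1 and Ins2 together per 10000 UMIs of the cell, and fewer than 100 of Gcg, 40 of Sst and 150 of Ppy. There was no upper limit on detected genes. The members were thus chosen by these hormone values, and the levels of insulin, Gcg, Sst and Ppy are descriptions with no test.

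Islets came from mice aged 5 weeks on a C57BL/6N background and were kept in culture overnight before the cells were separated, and each group gave 1 library of 150 islets pooled from 4 mice. The control library is labelled wildtype and came from Cre-negative littermates. The other library, labelled TBL/RβKO, came from mice with Cre recombinase inserted at the endogenous Ins1 gene and with loxP sites around parts of Tbl1x and Tbl1xr1; recombination is thus driven in insulin-producing cells, and Ins1 itself carries the insertion. Each group being 1 library, no replicate error exists for any difference between the groups, and cells of 1 library are not replicates of a condition. All intervals below are 95% intervals for counting error only. Summed UMIs of the targeted genes were higher in the library labelled TBL/RβKO. Tbl1x stood at 90.5 CPM (UMIs per 1e6 UMIs) in the members and at 224 CPM in the 377 cells that met the same rule there. Tbl1xr1 stood at 18.5 and 77.4 CPM. UMIs were summed over each whole gene, so the flanked exons could not be looked at on their own. Cre UMIs numbered 0 in the members and 1175 in the cells of the other library, where 99 of the 377 cells (26.3%) had one.

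Pancreatic β-cells store insulin in dense secretory granules and release it when glucose, taken up through GLUT2 (Slc2a2) and broken down in the cell, closes ATP-sensitive potassium channels and lets calcium in. Their identity is held by transcription factors such as Pdx1, Nkx6-1 and Mafa, of which Mafa and the peptide Ucn3 mark mature cells in the mouse. Mice carry a pair of insulin genes: Ins2, which keeps the ancestral intron structure, and Ins1, a retroposed copy with a single intron.

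The insulin genes together make up most of the mRNA counted here, so stretches of their coding sequences are shown first. Each line is the coding strand of GRCm39, 5′ to 3′, and capitals mark the bases that differ between the genes. The first pair is the start of the coding sequence, which encodes the signal peptide, and lies in exon 2 of 2 of Ins1 (chr19:52253062-52253133, plus strand) and exon 2 of 3 of Ins2 (chr7:142233199-142233270, minus strand).
Ins1 coding start: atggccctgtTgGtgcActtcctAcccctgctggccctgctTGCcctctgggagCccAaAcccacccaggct
Ins2 coding start: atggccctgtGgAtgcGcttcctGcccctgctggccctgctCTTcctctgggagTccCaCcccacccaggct
The second pair is the last 90 bases of the coding sequence, which encode the end of the C-peptide, the A chain and the stop codon, in exon 2 of 2 of Ins1 (chr19:52253299-52253388, plus strand) and exon 3 of 3 of Ins2 (chr7:142232450-142232539, minus strand).
Ins1 coding end: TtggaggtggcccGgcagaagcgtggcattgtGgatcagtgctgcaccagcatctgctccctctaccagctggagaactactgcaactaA
Ins2 coding end: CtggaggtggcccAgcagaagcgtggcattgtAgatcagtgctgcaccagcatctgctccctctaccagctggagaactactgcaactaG
The signal peptide start differed at 10 of 72 bases and the coding end at 4 of 90. Over the whole coding sequences, of 327 and 333 bases with the stop codon, 303 of 333 aligned columns (91.0%) were identical. Over the last 100 bases of each annotated transcript, 40 of 101 aligned columns were identical, but these are not matching stretches. The annotated Ins1 transcript ends at base 52253914, far past its stop codon, and that of Ins2 at base 142232393, close to its own. The last 100 bases of Ins2 thus include coding bases and those of Ins1 do not. This value therefore does not measure how far matching 3′ ends differ. The deposited counts do not show which bases a read covered, so the treatment of reads from the shared stretches was not examined.

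The label β-cell was checked against 7 marker genes, of which the rule used only Ins1 and Ins2. Iapp, the granule peptide amylin, ranged from 26.5 to 1073 UMIs per 10000 with a median of 433, against a median of 12.3 in the 954 control α-cells (at least 1000 UMIs of Gcg and fewer than 1000 of insulin per 10000). Mafa, the maturation factor, had a median of 4.82 UMIs per 10000 (0 to 21.4) in the members and 0 (0 to 2.35) in the α-cells. The glucose transporter gene Slc2a2 had medians of 3.18 (0 to 17.6) and 0 (0 to 4.01). Every one of these markers was higher in the typical member than in the typical α-cell, with ranges that overlapped. Nkx6-1, a factor of β-cell development, had a median of 1.88 UMIs per 10000 (0 to 7.59) against 0 (0 to 2.97), and Ucn3 had 1.54 (0 to 8.39) against 0 (0 to 2.25).

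Shares of cells with a UMI depend on depth, so each cell was also thinned to 5000 UMIs of genes other than insulin and mitochondrial genes, which every cell reached. At that depth 93.3% of members had a Mafa UMI, against 11.4% of the α-cells and 10.5% of 153 non-endocrine cells. The part of free RNA or of captured cell pairs in the shares of the non-endocrine cells was not tested. Without thinning the share of members was 98.5%. The thinned shares were 91.3%, 6.71% and 4.58% for Slc2a2, 86.8%, 8.49% and 5.88% for Nkx6-1, and 78.6%, 3.25% and 3.92% for Ucn3. Median depth was 52155.5 UMIs in the members, 19704 in the α-cells and 21710 in the non-endocrine cells. Only a few members lacked any single marker: 33 had no Mafa UMI, 35 no Slc2a2, 84 no Ucn3, 15 no Nkx6-1 and 32 no Pdx1. The 10 members with neither Mafa nor Slc2a2 had a median of 30956.5 UMIs, against 52294.5 in the others. The plot of markers per cell shows these levels beside the other hormones.

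**Figure D1:**
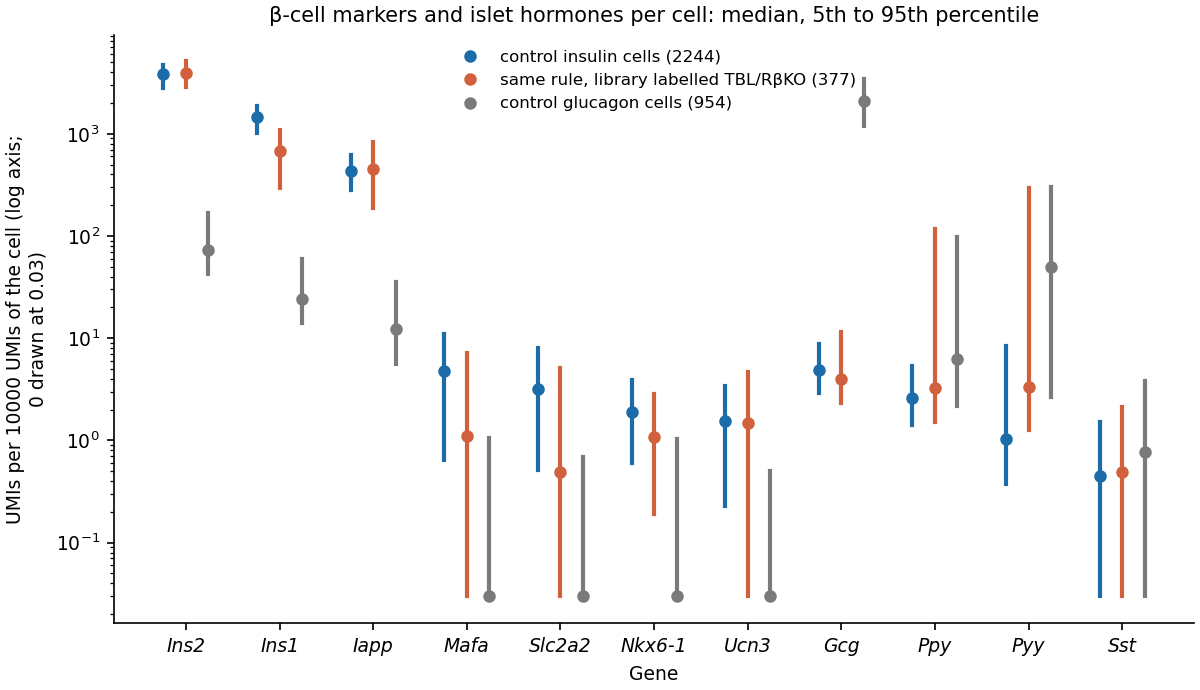
UMIs per 10000 UMIs of a cell (log axis, 0 drawn at 0.03) for 7 β-cell markers and 4 other hormones. Points are medians over cells and bars run from the 5th to the 95th percentile, for the 2244 control members (blue), the 377 cells under the same rule in the library labelled TBL/RβKO (orange) and the 954 control α-cells (grey). Ins1, Mafa, Slc2a2 and Nkx6-1 medians are lower in orange than in blue, and the Pyy bar of the members reaches 8.45.

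The members held 139376582 UMIs, 57.7% of the control library. A member had between 11515 and 248087 UMIs and between 2524 and 9278 detected genes, with medians of 52155.5 and 5876. The mitochondrial share ranged from 0.488% to 9.88% with a median of 2.60%. Of all control barcodes, 5050 passed the limit on genes and 4747 also that on mitochondrial UMIs. Of these, 2562 passed the insulin limit. The limits on Gcg, Sst and Ppy left 2419, 2261 and 2244 in turn. The nearest values inside and outside a limit were 3052 and 2993 UMIs per 10000 for insulin, 94.1 and 100.5 for Gcg, 37.4 and 40.2 for Sst, and 118 and 158 for Ppy. Insulin separated the cells with few at its limit: 14 members lay within 10% above it and 13 otherwise passing cells within 10% below.

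A doublet caller (Scrublet) marked 84 control barcodes by its automatic threshold. With the highest scores marked at the rate set by loading, 71 members (3.16%) were marked, against 131 of the 318 control cells (41.2%) that met the insulin limit but exceeded 1 or more of the other hormone limits. Members were not removed for their score. The libraries shared 14 barcode sequences, 6 of them those of members.

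Insulin mRNA made up 53.5% of all UMIs of the members summed. In a single cell its share ranged from 30.5% to 81.9%, with a median of 53.2% (52.8% to 53.5%). The central 90% of cells lay between 39.1% and 64.1%, so most members differed by less than 2-fold in insulin share while their total UMIs differed more widely. Ins2 alone took 38.7% of the UMIs and Ins1 14.8%. Per cell, Ins2 ranged from 1924 to 5545 UMIs per 10000 with a median of 3827, and Ins1 from 386 to 2833 with a median of 1469.

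The ratio of the insulin genes within a cell does not depend on its other UMIs. Members had a median of 0.386 Ins1 UMIs per Ins2 UMI (0.383 to 0.389), and the central 90% of cells lay between 0.290 and 0.496. Ins2 outnumbered Ins1 in all but 2 members. Its median was 0.386 both in the 1247 members with fewer than 6000 detected genes and in the 997 with 6000 or more. It was also 0.386 (0.364 to 0.408) in the 104 members with 10 or more Pyy UMIs per 10000, though 7 of the 14 members below 0.2 were among these. In α-cells, whose insulin UMIs had a median share of 0.971%, the ratio was 0.333 (0.329 to 0.336).

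**Figure D2:**
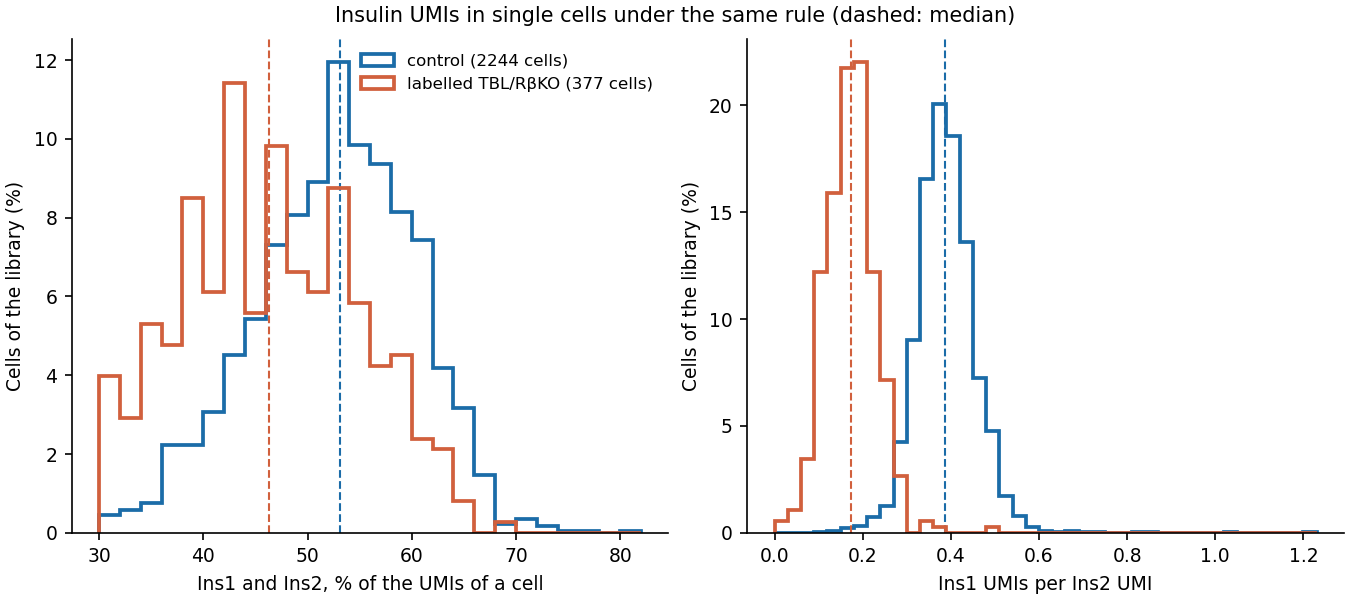
Left, the share of a cell's UMIs that came from Ins1 and Ins2, in percent; right, Ins1 UMIs per Ins2 UMI in a cell. Lines show the percentage of cells per bin for the 2244 control members (blue) and the 377 cells under the same rule in the library labelled TBL/RβKO (orange), and dashed lines mark medians of 53.2% and 46.3% at left and 0.386 and 0.174 at right. The left panel starts at 30% because the rule does.

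Beyond insulin, the summed members had UMIs of 16908 of the 22383 features, 6868 of them at 10 CPM or more and 746 at 100 CPM or more. Ribosomal protein genes took 3.61% of UMIs and mitochondrial genes 2.81%. Iapp took 4.57%, or 45743 CPM. Leaving out mitochondrial and ribosomal protein genes, it was followed by the granin gene Chga (5256 CPM) and Pcsk2 (2424 CPM), which encodes a prohormone convertase, and by the ferritin gene Ftl1 (1550 CPM). Phactr1 had 1484 CPM and Scg2, another granin, 1229 CPM. CPM here is a share of UMIs counted at transcript ends and was not scaled by transcript length.

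All 14 genes of granule proteins and prohormone processing reached 10 CPM. The prohormone convertase gene Pcsk1 stood at 242 CPM (a median of 2.25 UMIs per 10000, up to 13.4) and its inhibitor gene Pcsk1n at 887 CPM. Slc30a8, the zinc transporter of the insulin granule, stood at 619 CPM and the carboxypeptidase Cpe at 839 CPM. In α-cells Pcsk1 was at 7.61 CPM.

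Of 19 β-cell transcription factors, 17 reached 10 CPM. Mafa was at 512 CPM (508 to 516), Nkx6-1 at 201 (198 to 203) and Pdx1, the founder factor of the pancreas, at 118 (116 to 120). Several of the factors are pan-endocrine, such as Neurod1, at 133 CPM, and Rfx6, at 135 CPM. Mlxipl, the carbohydrate-responsive factor ChREBP, separated the types at 113 and 11.1 CPM. Factors of other islet lineages were low in the members: Irx1, an α-cell factor, stood at 0.287 CPM against 67.4 CPM in α-cells and Irx2 at 0.954 against 119 CPM. Etv1 stood at 16.4 CPM against 556 CPM.

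Genes of glucose handling had these levels. Slc2a2 stood at 351 CPM (348 to 354) and Slc2a1, the transporter of most other cells, at 4.43 CPM. G6pc2, the β-cell glucose-6-phosphatase, stood at 467 CPM. Of 16 genes known to be kept silent in β-cells, 0 reached 10 CPM. Ldha, lactate dehydrogenase, stood at 0.387 CPM against 321 CPM in non-endocrine cells, and Slc16a1, a monocarboxylate transporter, at 0.0502 against 15.9 CPM. Pdgfra had 0 UMIs in the members, which allows up to 3 UMIs in 139376582.

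Of 14 genes of ion channels and calcium handling, 12 reached 10 CPM. The KATP channel genes Abcc8 and Kcnj11 stood at 328 and 21.2 CPM, and Cacna1c and Cacna1d, which encode L-type calcium channel pores, at 272 and 232 CPM. Trpm5 was at 41.7 CPM in members and 1.07 CPM in α-cells. Ryr2, the ryanodine receptor gene, had only 4 UMIs. Among receptors, Glp1r (320 CPM), Prlr (380 CPM) and Chrm3 (305 CPM) were the highest of the 13, and in α-cells the same genes stood at 14.5, 12.0 and 42.0 CPM.

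The spread between members was set against counting error at 5000 UMIs per cell of genes other than insulin and mitochondrial genes, where counting alone gives a variance equal to the mean. Of 9107 genes with a mean of 0.05 UMI or more, 338 (3.71%) had a variance-to-mean ratio of 1.5 or more, and the median gene had 1.04. The same relative spread raises the ratio less at a low mean, so a low ratio there does not show that a gene was even. The highest ratios were those of Pyy (149), Iapp (51.8), Hspa1a (47.9), Apoe (31.2), Mt1 (18.0) and Rbp4 (14.7). Of the listed genes, 10 of 14 granule genes and 10 of 18 genes of ER folding and stress passed 1.5, against 3 of 18 β-cell transcription factors and 0 of 7 exocytosis genes. Granule genes have high means, which makes a ratio over 1.5 easier to reach, and this was not corrected for.

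**Figure D3:**
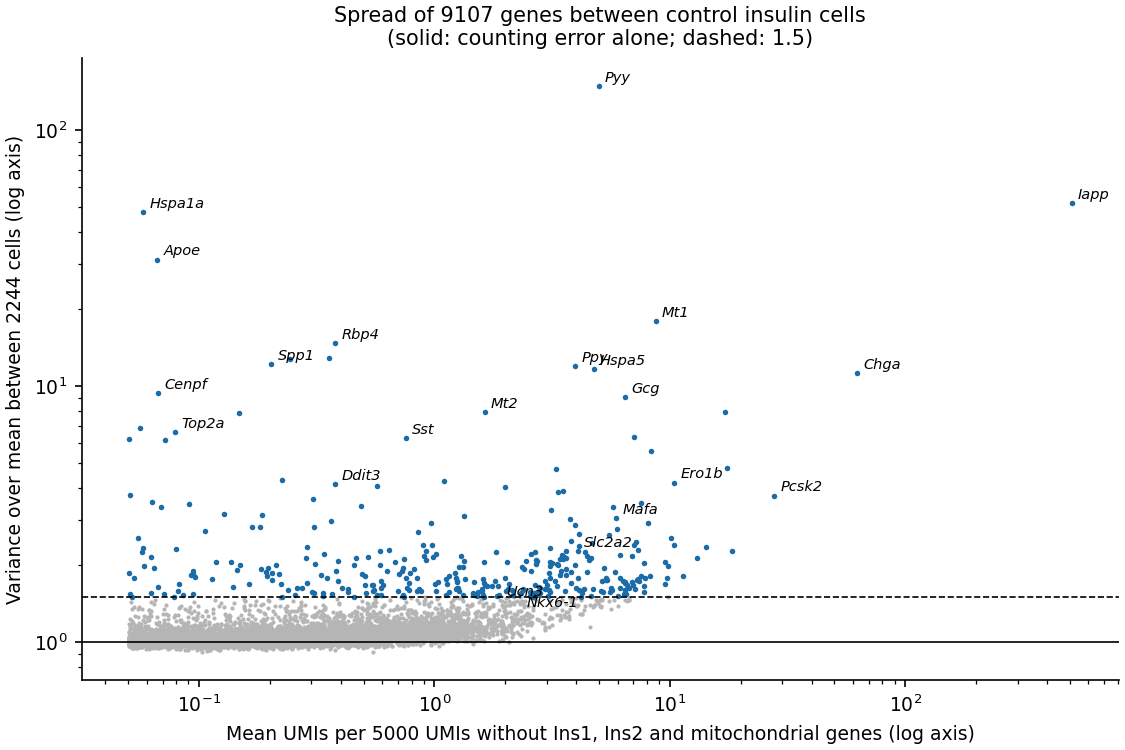
Variance over mean between the 2244 members (log axis) against mean UMIs per cell (log axis), at 5000 UMIs per cell without Ins1, Ins2 and mitochondrial genes; each point is 1 of 9107 genes. The solid line is the value 1 that counting error gives, the dashed line is 1.5, and the 338 genes at or above it are blue; Pyy lies highest at 149.

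A few cells carried much of this spread, and limits for these cells were set after their values had been seen. Hspa5, which encodes the ER chaperone BiP, had a median of 3.60 UMIs per 10000 and a highest value of 322. The 8 members (0.357%) with 20 or more also held more Ddit3, the stress factor CHOP, by 5.09 on the log2 scale (4.94 to 5.23), and more Herpud1, of ER-associated degradation, by 4.16 (4.04 to 4.27). Mafa stood lower in them, at a log2 ratio of -2.66 (-3.18 to -2.18), as did Ucn3 (-2.06) and Slc2a2 (-1.33). Their median insulin share was 45.3%, against 53.2% in the other members. Over all 2244 cells of the library, Hspa5 correlated with Herpud1 (Pearson r = 0.786), Ddit3 (r = 0.777) and Dnajb9 (r = 0.716), a description that these few cells dominate.

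Heat shock was more concentrated still. For Hspa1a, 82.8% of UMIs lay in 2 members with 5 or more per 10000. In these 2 cells Hsph1, a co-chaperone, was higher by 5.05 on the log2 scale and Hsp90aa1 by 3.88. At the thinned depth only 1.25% of members had an Hspa1a UMI.

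The metallothionein gene Mt1 passed 30 UMIs per 10000 in 66 members (2.94%), which held 16.9% of its UMIs. Mt2 correlated with Mt1 over the 2244 cells (r = 0.779) and was higher in these cells by 3.21 on the log2 scale (3.16 to 3.26). Mafa (-0.67) and Slc2a2 (-0.83) stood lower in them, while their median insulin share was 52.1% against 53.2%. Unlike the Hspa5 cells, these members thus had an insulin share close to that of the rest.

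Markers of other cell types were low in nearly all members. Summed macrophage markers reached 5 UMIs per 10000 in 2 members, endothelial markers in 3, B cell markers in 2, ductal markers in 16, and stromal, T cell and acinar markers in 0. Cd79b of B cells, Cd3e and Trac of T cells, and Prss2, Cela2a and Cpb1 of acinar cells had no UMI in any member. Cd79a of B cells went the other way with 1484 UMIs, and C1qa of macrophages had 3575. Summed B cell markers stood at 11.0 CPM in members and 6.27 CPM in non-endocrine cells, and summed macrophage markers at 29.2 and 5391 CPM. Apoe, named among the most variable genes, had 56.6% of its UMIs in 2 members, and these held C1qb, a macrophage complement gene, at a log2 ratio of 10.98 (10.46 to 11.53) to the other members. The α-cell markers other than Gcg summed to a median of 3.12 UMIs per 10000, up to 74.5, and reached 5 in 406 members (18.1%). Ttr, the most abundant of them, was at 331 CPM in members and 8693 CPM in α-cells. The δ-cell markers other than Sst reached 5 in 28 members. The part of free RNA or of captured cell pairs in these UMIs was not tested.

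Pyy, the peptide YY gene, was the most unevenly spread gene. It had a median of 1.03 UMIs per 10000 and a highest value of 593, and 104 members (4.63%, 3.80% to 5.59%) with 10 or more held 73.7% of its UMIs. Pyy lies on chromosome 11 with 5356 bases between it and Ppy, the pancreatic polypeptide gene of the same family. Of the 41 members with 15 or more Ppy UMIs per 10000, 30 (73.2%) were also among the 104 Pyy cells, of which they made up 28.8%.

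The Pyy cells, a set drawn after the values had been seen, differed from other members in islet identity genes on the scale without insulin and mitochondrial UMIs. Rbp4, which marks δ-cells, stood at 756 CPM against 37.2 CPM, a log2 ratio of 4.35 (4.26 to 4.43). Sst was higher by 3.06 (3.00 to 3.12), although Sst and Ppy remained under the limits of the rule in each cell. Unc5d, a netrin receptor gene, stood at 172 against 5.86 CPM (4.87). In the other direction Mafa was at 632 against 1202 CPM (-0.93, -0.99 to -0.86), Slc2a2 at 417 against 825 CPM (-0.98) and Ucn3 at 230 against 385 CPM (-0.75). Pdx1, at 270 CPM in both, and Iapp (-0.02) were alike. The median insulin share was 46.3% in the Pyy cells and 53.4% in the others, and median UMIs were 40940.5 and 52304. Doublet scores marked 24 of the 104 (23.1%), against 71 of all 2244 members, and the part of doublets in these differences was not tested.

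Dividing cells were found with 8 mitotic genes (Mki67, Top2a, Cdk1, Ccnb1, Ccna2, Birc5, Aurkb and Ube2c). Members with UMIs of 3 or more of them numbered 46 (2.05%, 1.5% to 2.72%). By number of genes with a UMI, 1934 members had none of the 8 genes, 243 had 1, 21 had 2 and 27 had 7 or 8. At the thinned depth 34 members (1.52%) had 3 or more, against 2 of 954 α-cells (0.210%) and 2 of 153 non-endocrine cells (1.31%). The share was 2.20% (7 of 318) in control insulin cells with a second hormone. In the cells under the same rule in the library labelled TBL/RβKO it was 2.65% (10 of 377). The dividing members had 731 CPM of Top2a, the topoisomerase of chromosome condensation, against 1.86 CPM in the others, and Hmmr, a spindle gene, stood at 262 against 0.187 CPM. Pcna, of DNA replication, was at 208 against 42.9 CPM and the cell cycle inhibitor Cdkn1a at 149 against 74.1 CPM.

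Several β-cell genes stood lower in the 46 dividing members. Mafa stood at 745 against 1185 CPM without insulin and mitochondrial genes, a log2 ratio of -0.67 (-0.75 to -0.59), Slc2a2 at -0.75 (-0.85 to -0.66) and Nkx6-1 at -0.56 (-0.68 to -0.44). Ero1b, an oxidase of proinsulin folding, stood at -0.83 and Ucn3 at -0.27. Iapp (-0.06) and Pdx1 (-0.20) differed less. Cyclin D2 (Ccnd2), the main D cyclin of β-cells, was at 979 against 1290 CPM (-0.40). The same 46 cells held 403 of the 867 Hspa1a UMIs of all members (a log2 ratio of 4.84) and 148 Hspa1b UMIs (4.43). The 2 members named above for heat shock held 718 Hspa1a and 290 Hspa1b UMIs, and all other members together 149 and 85. The Hspa1a and Hspa1b ratios thus rest at least in part on those outlying cells and are no general trait of dividing members. Mt1 (0.85) and Mt2 (1.07) also stood higher in the 46 cells, and the part of these stress genes in the differences was not tested. The dividing cells had a median of 73115.5 UMIs against 51654.5, a median insulin share of 50.7% against 53.2%, and 0 of the 46 were marked by doublet score.

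Correlations over the 2244 cells at the thinned depth were taken for chosen genes only, and the values describe 1 library. With Ins2, counted per cell, Iapp had the highest correlation (r = 0.656), followed by the ubiquitin gene Ubb (r = 0.485), Eif1 (r = 0.428) and Pcsk1n (r = 0.417). With Mafa the highest were Ero1b (r = 0.378), Prlr (r = 0.276) and Slc2a2 (r = 0.263). Ucn3 had none above 0.172, its value with Ftl1, which at this depth is no finding.

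The members were then divided into 4 groups of 561 cells by insulin share, with median shares of 43.6%, 50.7%, 55.4% and 61.1%. Group 1 had the lowest and group 4 the highest share. Levels were taken as CPM of the UMIs left without insulin and mitochondrial genes. Of 9358 genes, 347 (3.71%) were lower and 2 (0.0214%) higher by 2-fold in group 4 than in group 1, and the median log2 ratio of all genes was -0.19. The median mitochondrial share of all UMIs, insulin included, was 3.22% in group 1 and 2.11% in group 4, and the Ins1 per Ins2 ratio was 0.398 and 0.376.

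Iapp, Pcsk1n and Ucn3 stood higher in group 4 than in group 1. Iapp went from 77319 CPM in group 1 to 97278, 112383 and 134878 CPM, a log2 ratio of 0.80 (0.80 to 0.81) of group 4 over group 1. Pcsk1n was higher by 0.86 (0.84 to 0.89) and Ucn3 by 0.66 (0.60 to 0.71). Mafa differed by 0.17 (0.14 to 0.20) and reached its highest value in group 3, and Slc2a2 stood at -0.16 (-0.19 to -0.12). G6pc2 (-0.01) and Hspa5 (-0.01) were level. Of the 14 granule and processing genes 6 were above 0 and 8 below, among them Pcsk2 (-0.34), Slc30a8 (-0.34) and Pam (-0.42), with a list median of -0.10. Of the 18 ER genes 13 were above 0, with a median of 0.10. Over all 9358 genes compared 3297 were above 0, and the median was -0.19.

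Of the 12 ion channel and calcium genes 9 were below 0, with Cacna1c and Cacnb2 (-1.08) past 2-fold, and 3 were above: Trpm5 at 0.71 (0.61 to 0.82), Trpm4 at 0.55 and Kcnk16 at 0.29. The sum of the list was lower in each successive group, at 5972, 5391, 4818 and 4002 CPM, with Cacna1c at -1.22 (-1.27 to -1.18) and Cacna1d at -0.91. Ptprn2, a granule membrane phosphatase, was at -1.23 (-1.25 to -1.20), apart from the rest of its list, and the transcription factors Rfx3 (-1.13), Glis3 (-1.08) and Rfx6 (-1.02) passed 2-fold. Pyy stood at -1.42 (-1.46 to -1.38).

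The 347 lower genes were long. Their median span in the genome was 269 kb, against 30.2 kb for all 9358 genes, and 81.8% of them spanned 100 kb or more, against 16.5% of all. The 672 genes higher by 0.5 or more on the log2 scale had a median span of 7.12 kb. UMIs of the 1540 genes of 100 kb or more made up 24.1%, 20.8%, 18.3% and 14.4% of the UMIs without insulin and mitochondrial genes in groups 1 to 4. Unspliced RNA read within introns is counted by the standard settings of the counting program, and its part in this pattern was not tested, as the deposited counts do not separate it.

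**Figure D4:**
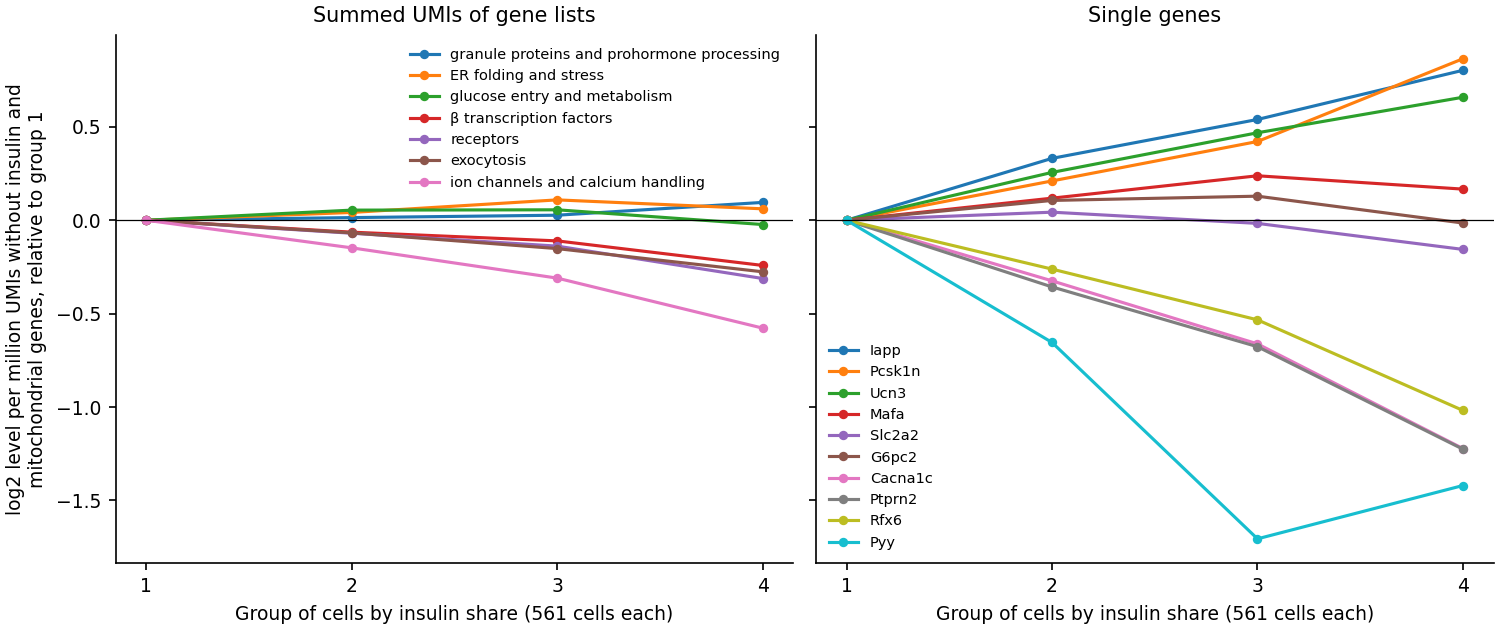
CPM without insulin and mitochondrial UMIs, as log2 ratios to group 1, in 4 groups of 561 members ordered by insulin share from lowest (1) to highest (4). Left, summed UMIs of gene lists, of which ion channels and calcium handling end lowest; right, 10 single genes, with Pcsk1n (0.86), Iapp (0.80) and Ucn3 (0.66) above 0 in group 4 and Cacna1c, Ptprn2, Rfx6 and Pyy below -1.

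The study analysed cells with fewer than 6000 detected genes, a limit that 997 members (44.4%) exceeded. Their profile differed little from that of the 1247 members below it. Of 9221 genes, 21 (0.228%) were higher by 2-fold in the members with more genes and 1 (0.0108%), Cmss1, was lower, at -1.33. Stmn1, a microtubule gene of dividing cells, stood at 2.39 (2.19 to 2.60) and the histone gene H2ac24 at 0.80. The median insulin share of the members below the limit was 54.1%. By contrast 290 of the 318 insulin cells with a second hormone (91.2%) had 6000 genes or more, with a median of 83576 UMIs. Against those cells, 3 of 7397 genes (0.0406%) were 2-fold higher in the members and 170 (2.3%) lower; apart from the hormones that defined the groups, Rbp4 stood at -4.74 and Gpx3 at -3.13.

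The last comparison set the members against the 377 cells that met the same rule in the library labelled TBL/RβKO, where they made up 9.02% of the cells past the gene and mitochondrial limits, against 47.3% in the control. A further 138 cells there and 28 in the control had 1000 to under 3000 insulin UMIs per 10000 and met the other limits. The rule thus took the insulin-rich end of the other library, and shares of cells depend on where it lies. Of the 377 cells, 244 (64.7%) had 6000 genes or more, and median UMIs were 68977.

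Of 7184 genes at 10 CPM or more in either group, 106 (1.48%) were 2-fold higher in the control members and 230 (3.2%) lower, 336 (4.68%) in all, with a median log2 ratio of -0.03. Of the called genes 31.5% were higher in the control. With the totals taken without hormones and mitochondrial genes the median was 0.19 and the split turned, with 58.8% of the called genes higher in the control. With only cells under 6000 genes the median was 0.12 and 58.1% were higher. Directions below held under all 6 other settings that could give a value for the gene, unless stated.

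Ins1 and several β-cell genes were higher in the control. Ins1 stood at 148050 CPM against 69603 CPM, a log2 ratio of 1.09 (0.92 to 1.09 over the settings), while Ins2, at 386896 and 396942 CPM, differed by -0.04. The median Ins1 per Ins2 ratio was 0.386 in the members and 0.174 (0.167 to 0.181) in the other cells, and 14 of 2244 and 266 of 377 cells were below 0.2, so the distributions overlapped only at their edges. The knock-in of Cre at Ins1 and the deletion of the targeted genes cannot be told apart here. Mafa stood at 512 against 204 CPM, a log2 ratio of 1.33 (1.29 to 1.36 by counting, 1.04 to 1.52 over the settings), and Slc2a2 at 351 against 125 CPM, 1.49 (1.44 to 1.53 by counting, 1.07 to 1.68 over the settings). Slc30a8 stood at 619 against 233 CPM (1.41). Nkx6-1 (0.74) and Pdx1 (0.52) were also higher but did not reach 2-fold. Ucn3, at 165 and 173 CPM, had a ratio of -0.07 that ran from -0.13 to 0.12 over the settings, and G6pc2 one of -0.02 that ran from -0.16 to 0.17, so neither had a direction. The genes furthest up in the control were Pcdh15 (2.43), Tmsb15b2 (2.09), Selenop (1.95), Trpm3 (1.91), Lpl (1.78), which encodes lipoprotein lipase, and Cdh8 (1.76).

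Of 17 β-cell transcription factors compared, 1 (Mafa) was higher and 0 lower, and of 7 genes of glucose entry and metabolism 1 (Slc2a2) was higher. None of the 12 channel genes and 18 ER genes passed. Over all 7184 genes 1.48% were higher and 3.2% lower in the control, so 0 or 1 call in lists this small sets no list apart. Of the 9 immediate early genes Egr1 passed, at 139 against 67.2 CPM (1.05, 0.81 to 1.39 over the settings). Of 14 granule genes Slc30a8 was higher and Chgb, chromogranin B, lower in the control, at 680 against 3407 CPM (-2.33, -2.37 to -1.90 over the settings).

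Other lists held calls too, to be set beside the 1.48% higher and 3.2% lower of all 7184 genes. Of 7 hormone genes Ins1 was higher, while Pyy, Ppy and Sst (-1.04) were lower. The rule limited insulin, Ppy and Sst in both libraries, so their ratios are descriptions only, also where Sst is counted among δ-cell markers. Of the 5 progenitor and immaturity genes compared 3 were lower, namely Gast, the gastrin gene (-5.23), Gc (-1.16) and Rbp4 (-1.04), and of 9 heat shock genes 2, Hspa1a (-2.33) and Hspa1b (-1.99). Of the α-cell markers 2 of 3 (Ttr and Gc) and of the δ-cell markers 2 of 2 (Sst and Rbp4) were lower, as were 2 of 6 corepressor complex genes, Tbl1x and Tbl1xr1. With cells high in Ppy or Pyy left out, Rbp4 turned to 1.31, Sst stood at -0.06, Hspa1a at -0.37, Hspa1b at -0.28 and Gast at -3.09. Rbp4 was also above 0 in cells under 6000 genes (1.26) and at an insulin limit of 4000 (0.19).

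Other genes lower in the control were led by Csn3, κ-casein, with 50 UMIs in the members and 2933 in the other cells (0.359 and 99.9 CPM, a log2 ratio of -8.12). Rgs4, a regulator of G protein signalling, stood at 12.8 against 510 CPM (-5.32) and S100a6 at 6.10 against 203 CPM (-5.05). Ttr was at 331 against 2247 CPM (-2.76). Pyy, at 418 against 5850 CPM (-3.81), and Ppy, at 345 against 2241 CPM (-2.70), are set beside the share of Pyy cells, which was 104 of 2244 in the control and 127 of 377 (33.7%) in the other library. With cells of 15 or more Ppy or 10 or more Pyy UMIs per 10000 left out of both, Pyy stood at -1.20 and Ppy at -0.11, and 64 genes were higher and 138 lower in the control. Mafa (1.04), Slc2a2 (1.07) and Slc30a8 (1.08) were still past 2-fold there and Ins1 (0.92) was not.

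**Figure D5:**
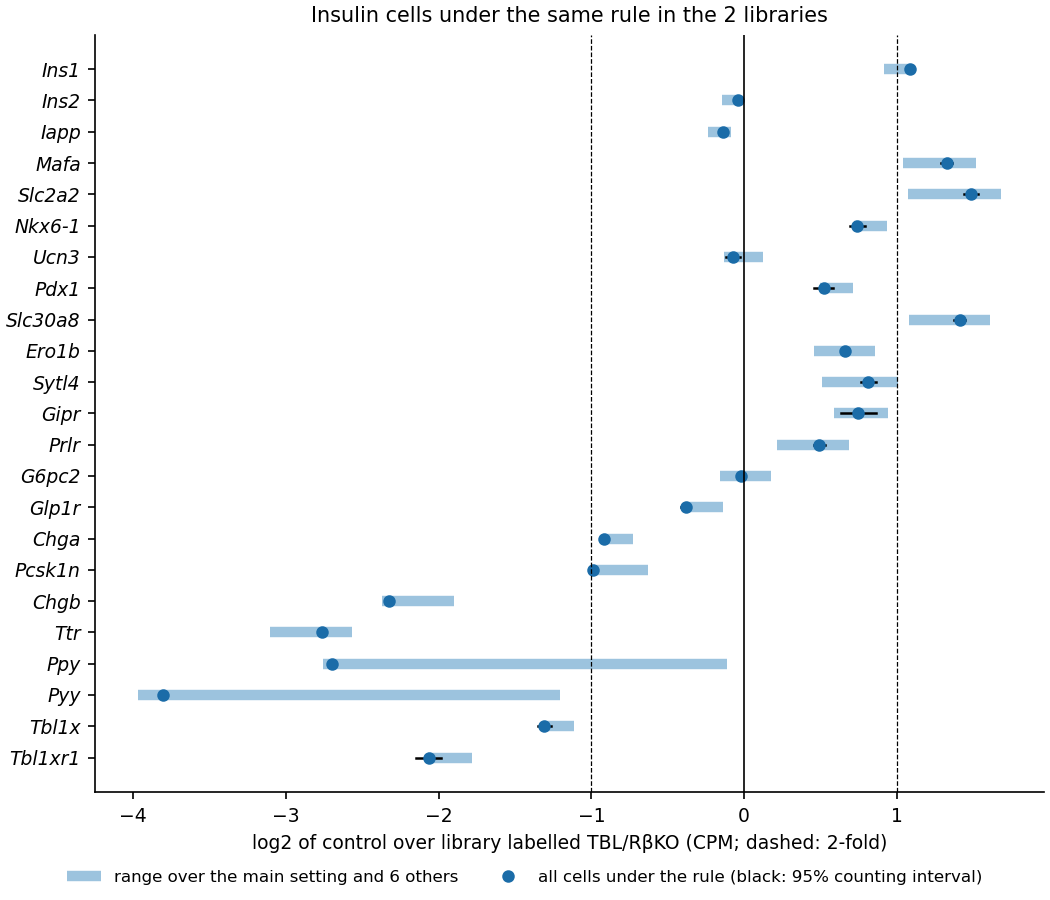
Log2 ratio of CPM in the 2244 control members over CPM in the 377 cells under the same rule in the library labelled TBL/RβKO, for single genes. Points are the ratios over all cells under the rule, black lines their 95% counting intervals, light bars the range over the main and the 6 other settings, and dashed lines mark 2-fold. Mafa, Slc2a2 and Slc30a8 lie past 2-fold higher in the control under every setting drawn, and Ppy and Pyy have the widest bars.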

How the data were processed

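Both libraries were made with droplet 3′ chemistry (version 3.1), and the authors counted UMIs per gene and barcode with Cell Ranger 7.1.0 on the mouse genome GRCm39, with 10000 expected cells and otherwise standard parameters. The deposited matrices hold these raw counts, with no removal of free RNA. The control library held 241434108 UMIs and the library labelled TBL/RβKO 185062206. Cells were chosen by the stated rule, and α-cells (1000 or more Gcg and fewer than 1000 insulin UMIs per 10000) and non-endocrine cells (20 or more UMIs per 10000 of their markers) from the same filter. UMIs were summed over cells. Genes at 10 CPM or more in either sum were compared by log2 ratios with exact conditional binomial intervals. Intervals of levels are exact Poisson, of shares Clopper-Pearson and of medians order-statistic intervals. With 1 library per group no test was made. For the spread between cells, each cell was thinned to 5000 UMIs (seeded), and ratios of variance to mean of 1.5 or more were counted. Doublets were scored with Scrublet in scanpy 1.11.5, and the highest scores were marked at 0.8% per 1000 barcodes, since the automatic threshold marked 1 barcode (0.0187%) of the library labelled TBL/RβKO and had not worked there. The 4 groups by insulin share held equal numbers of cells.

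Named genes were those of 28 lists (226 of 227 listed genes were in the files), the 20 highest by CPM and by variance ratio, the 10 highest and lowest in each comparison at 50 CPM or more, and the 5 best correlated with Ins2, Mafa and Ucn3. The members, lists and limits were chosen with earlier results of these data known. The Pyy, dividing, Hspa5, Hspa1a, Mt1 and Apoe cells, the groups by insulin share, and the genes named for them outside these lists were chosen after values were seen. Alternatives were a limit of 6000 genes, a mitochondrial limit of 5%, an insulin limit of 4000, removal of marked doublets, thinning to 2500 UMIs, a mean of 0.2 UMI, scaling without hormones and mitochondrial genes, and no filter beyond 1 UMI. Positions and sequences came from the GENCODE annotation and GRCm39, with 17 of 17 genes matched by Ensembl identifier. Some listed genes are not reported here. Counting steps were tested on simulated data. Python 3.11.15, numpy 2.4.6, scipy 1.17.1, pandas 2.3.3 and matplotlib 3.10.9 were used.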

Additional observations from a re-analysis of the deposited data

How the results depend on the processing

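No paired analysis was possible because each group is 1 library. Of the 46 counts and medians recomputed under other settings, 28 stayed within the limits set for them and 18 moved. The median Ins1 per Ins2 ratio stayed between 0.386 and 0.387. Keeping cells under 6000 genes left 1247 members with a median insulin share of 54.1%, and 200 genes 2-fold higher and 144 lower in the control than in the other library. A mitochondrial limit of 5% left 2077 members and a share of 53.6%, and an insulin limit of 4000 left 2104 members, a share of 53.6% and 139 lower genes. Thinning to 2500 UMIs gave 111 genes with a variance ratio of 1.5 or more, against 338 at 5000. Scaling without hormones and mitochondrial genes gave 295 genes higher in the control. With no filter beyond 1 UMI, 1840 genes were higher and 2936 lower in the control, and 1720 higher and 1070 lower in members of 6000 genes or more, over 17507 and 16893 genes compared. Leaving out cells of 15 or more Ppy or 10 or more Pyy UMIs per 10000, chosen after seeing the data, left 2129 members and 230 cells of the other library, with 64 genes higher and 138 lower. Depth limits the low genes: 0 UMIs in the members allow up to 3 in 139376582, and the 377 cells of the other library carry wider intervals.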

Other observations

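Genes outside the lists also differed between the Pyy cells and the other members, and those given here were chosen after their values were seen. Adgrl3, a latrophilin adhesion receptor gene, stood at 55.0 against 164 CPM (log2 ratio -1.57, -1.80 to -1.36), Gpr158 at 272 against 707 CPM (-1.38) and Cdh8 at 142 against 343 CPM (-1.28). Gad1, which encodes a GABA-synthesizing enzyme, stood at 47.8 against 95.1 CPM (-0.99). Nlgn1, the neuroligin 1 gene, and Unc5c, a netrin receptor gene, stood higher in the Pyy cells, at 3.05 and 1.59. Also higher there, Id3 and Id2, inhibitors of helix-loop-helix factors, stood at 2.52 and 1.74 and Txnip at 1.56.

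In the 4 groups of members by insulin share, Ndufc2, a nuclear gene of respiratory complex I, stood higher in group 4 (highest share) than in group 1. Its log2 ratio, scaled without insulin and mitochondrial UMIs, was 0.87 (0.81 to 0.94). Cox6a2 stood at 0.85 and Ubb at 0.89. The mitochondrially encoded share, at 2.11% against 3.22%, is of all UMIs. Its total includes the insulin UMIs by which the groups were ordered, so it cannot be set against these ratios.

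Genes 2-fold higher in the control members than in the other library had a median genomic span of 76.5 kb, those lower 33.5 kb and all 7184 compared genes 33.3 kb. A span of 100 kb or more was held by 39.6% of the higher genes, 30.1% of the lower and 18.5% of all.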
